A study of Mus musculus with 25 samples.

Results

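DNA replication and nucleotide supply genes are described here in mouse 2-cell embryos and blastocysts. The members were taken by gene symbol, a rule that uses no measured value, from the enzymes and complexes that load, start, drive and feed the replication fork. Earlier results of these data were known when the list was chosen. All 55 symbols were found, each at 1 locus, among the 24708 loci of every expression table. By role, 14 members license origins, 10 activate the helicase, 11 are polymerase or primase subunits, and 9 form the sliding clamp, its loader and the single-strand binding complex. The other members are 4 genes that process Okazaki fragments and RNA primers, 3 that protect the fork and 4 that supply deoxynucleotides.

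RNA of 11 of the 25 samples of the series was used, all from BDF1 mouse embryos. The 6 libraries of 2-cell embryos (embryonic day 1.5) had the genotype label WT (n = 2), sIVF (n = 2) or IVF (n = 2), where IVF stands for in vitro fertilisation and sIVF is not spelled out. The 5 blastocyst libraries (embryonic day 4.0) were labelled Fzr1-OE (n = 3) or Control (n = 2). The labels do not say how Fzr1-OE embryos were made, how the Control or WT embryos were conceived, how many embryos were pooled, or whether replicates were separate litters. FZR1 activates the anaphase-promoting complex, a ubiquitin ligase that acts on proteins, whereas the values here are of RNA.

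Replication begins when the origin recognition complex (ORC), with CDC6 and CDT1, loads the MCM2-7 helicase onto origins in G1 phase. At S-phase entry the kinase CDC7 with its activator DBF4, and cyclin E with its kinase partner, recruit CDC45 and GINS to turn the helicase on, and the polymerases alpha, delta and epsilon then copy the strands behind it. Many of these genes are transcribed late in G1 under E2F factors. The mouse zygote and 2-cell embryo divide with RNA and protein stored in the egg while the embryonic genome is switched on.

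Promoters are shown first, because a shared E2F site is a textbook feature of this family. A window of 250 bases before the start in RefSeq (build GRCm38.p6) was matched for 45 of the 55 members. Those without an entry were Rnaseh2b, Mcm4, Rfc2, Pole, Gins1, Ccne2, Prim2, Gins4, Gins2 and Tipin. The E2F core was searched on both strands as TTCCCGC, also as TTCGCGC, further as TTGCCGC and last as TTGGCGC, and matches that overlapped were counted separately. It was present in 20 of 45 members (44.4%), in 2435 of all 27025 genes with a window (9.01%) and in 1262 of the 7397 with a gene tested across the 11 libraries (17.1%). The members' windows had a median GC content of 61.2%, against 59.6% for the tested genes and 52.4% for all. A match is a description and not a site of binding. The 6 windows printed are those of MCM subunits with the most cores (Mcm6, Mcm5), of the 3 members that differed between blastocyst groups (Tk1, Rrm2, Rpa3), and of the member that fell most between stages (Pole4). Capitals mark E2F cores, each sequence runs 5′ to 3′ on the strand of its gene, and the windows lie at chr1:128359706-128359955 (minus strand), chr8:75109259-75109508 (plus), chr11:117826015-117826264 (minus), chr12:24708004-24708253 (plus), chr6:8259142-8259391 (minus) and chr6:82652875-82653124 (minus).
Mcm6: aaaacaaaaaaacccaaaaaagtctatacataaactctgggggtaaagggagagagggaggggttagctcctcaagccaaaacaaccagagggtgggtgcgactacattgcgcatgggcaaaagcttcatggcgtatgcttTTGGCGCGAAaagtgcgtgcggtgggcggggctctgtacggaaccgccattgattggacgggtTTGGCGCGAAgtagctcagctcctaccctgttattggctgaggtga
Mcm5: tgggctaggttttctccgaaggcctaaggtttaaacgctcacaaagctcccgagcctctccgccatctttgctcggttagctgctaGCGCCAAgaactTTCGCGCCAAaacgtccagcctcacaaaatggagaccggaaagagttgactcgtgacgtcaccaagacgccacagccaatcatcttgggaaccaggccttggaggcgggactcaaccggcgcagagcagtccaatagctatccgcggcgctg
Tk1: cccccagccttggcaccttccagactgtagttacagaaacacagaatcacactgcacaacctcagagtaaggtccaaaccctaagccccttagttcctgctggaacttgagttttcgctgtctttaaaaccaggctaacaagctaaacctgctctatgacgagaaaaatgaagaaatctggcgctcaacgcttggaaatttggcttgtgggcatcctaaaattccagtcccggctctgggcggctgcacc
Rrm2: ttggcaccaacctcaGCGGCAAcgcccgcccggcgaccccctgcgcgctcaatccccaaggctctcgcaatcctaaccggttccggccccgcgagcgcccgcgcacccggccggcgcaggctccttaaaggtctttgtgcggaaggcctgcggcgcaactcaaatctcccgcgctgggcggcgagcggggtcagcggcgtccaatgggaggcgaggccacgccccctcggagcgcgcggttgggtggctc
Rpa3: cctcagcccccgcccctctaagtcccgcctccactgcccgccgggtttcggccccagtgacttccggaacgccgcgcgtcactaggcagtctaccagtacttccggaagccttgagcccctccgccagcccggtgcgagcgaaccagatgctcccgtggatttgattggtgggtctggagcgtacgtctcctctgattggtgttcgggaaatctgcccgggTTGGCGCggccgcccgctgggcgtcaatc
Pole4: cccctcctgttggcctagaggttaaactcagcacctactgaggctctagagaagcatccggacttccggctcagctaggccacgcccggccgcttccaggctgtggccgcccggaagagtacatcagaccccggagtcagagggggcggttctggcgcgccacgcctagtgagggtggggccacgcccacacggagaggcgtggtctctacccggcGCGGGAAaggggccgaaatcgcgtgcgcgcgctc

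The Mcm6 window held 4 cores, as 2 pairs that overlap on opposite strands, and the Mcm5 window held 3. The Rrm2, Rpa3 and Pole4 windows held 1 each, and the Tk1 window held 0, so these letters are not in that window. The core was as frequent among members that rose between the stages (12 of 28, 42.9%) as among those that fell (3 of 7, 42.9%), and 5 of 10 members without a call had it. The CCAAT box (CCAAT, both strands) was in 24 of 45 members (53.3%) against 37.5% of all genes and 41.5% of tested genes. The cell cycle homology region (TTTGAA, both strands) was in 6 of 45 (13.3%) against 18.3% and 12.6%. With the 50 bases after the start included, the E2F core was in 28 of 45 members (62.2%), 10.9% of all genes and 20.6% of tested genes.

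Values are FPKM, which divides a gene's fragments by the length of its transcript and by the mapped fragments of the library. Levels of different genes are set beside each other on this scale. Such division does not correct for amplification of cDNA before fragmentation, so the order of genes by FPKM may differ from their order in RNA. The deposited confidence bounds implied a depth of 4742698 to 6377606 fragments for the 2-cell embryos and of 9324167 to 10483442 for the blastocysts, and the loci above 0 numbered 10085 to 11860 and 13658 to 13947. For members above 0, 2 standard deviations of counting error had a median of 11.95% of the value in 2-cell libraries (2.542% to 373.5%) and 6.665% in blastocysts (1.509% to 14.49%). Genes that every cell uses were low or listed at 0 in some 2-cell libraries (Polr2a and Sdha were listed at 0 in sIVF replicate 1), so a member at 0 there is only listed at 0. Fzr1 stood at 12.7, 15.5 and 17.1 FPKM in the libraries labelled Fzr1-OE and at 16.5 and 16.5 in Control. Here limma put the log2 fold change at -0.13 (SE 0.16) with an adjusted p of 0.713, so the label is not borne out by the level of its gene. In 2-cell libraries Fzr1 was at 0.1165 and 0.233 FPKM in WT, 0.239 and 2.00 in sIVF and 7.69 and 10.1 in IVF. Its log2 fold change by limma was 3.07 for IVF against WT (SE 0.72, adjusted p = 0.151). It was 0.72 for sIVF against WT (SE 0.72, adjusted p = 0.846) and -2.35 for sIVF against IVF (SE 0.72, adjusted p = 0.255). From 2-cell WT to Control blastocysts it was 3.90 (SE 0.40, limma adjusted p = 3.95e-05). All 7 trophectoderm markers were detected in each blastocyst group, with a summed level of 5584 to 5622 FPKM in Control, 3531 to 3599 in the libraries labelled Fzr1-OE and at most 22.05 in 2-cell libraries. Of 7 measured 2-cell markers, Zscan4c, Zscan4d and Zscan4f were at 0 in every blastocyst library. Tdpoz4 (6.21 to 6.89 FPKM) and Zfp352 (2.15 to 3.64 FPKM) were at 0 in both Control libraries and above it in all 3 libraries labelled Fzr1-OE, and Eif1a was higher in every blastocyst library than in any 2-cell library. Of 9 cumulus and granulosa markers Foxl2, Amh, Fshr, Cyp19a1, Has2 and Inhba were at 0 in every library, Ptx3 and Fst stayed at or under 0.0495 FPKM, and Tnfaip6 reached 3.92 FPKM in 2-cell WT replicate 1 and 3.48 in IVF replicate 2.

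The 55 members together took up 0.493% to 0.619% of the summed FPKM of a 2-cell library and 0.559% to 0.595% of a blastocyst library. A level of at least 10 FPKM was reached by 24 to 30 members in 2-cell libraries and by 44 to 48 in blastocyst libraries. The leading member changed with the stage. Tipin, which encodes the partner of TIMELESS in the fork protection complex, was highest in each of the 6 2-cell libraries, where it made up 18.0% to 28.0% of the members' sum. Rrm2, the regulated small subunit of ribonucleotide reductase, was highest in each of the 5 blastocyst libraries, followed by Tk1, the salvage enzyme thymidine kinase.

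**Figure D1:**
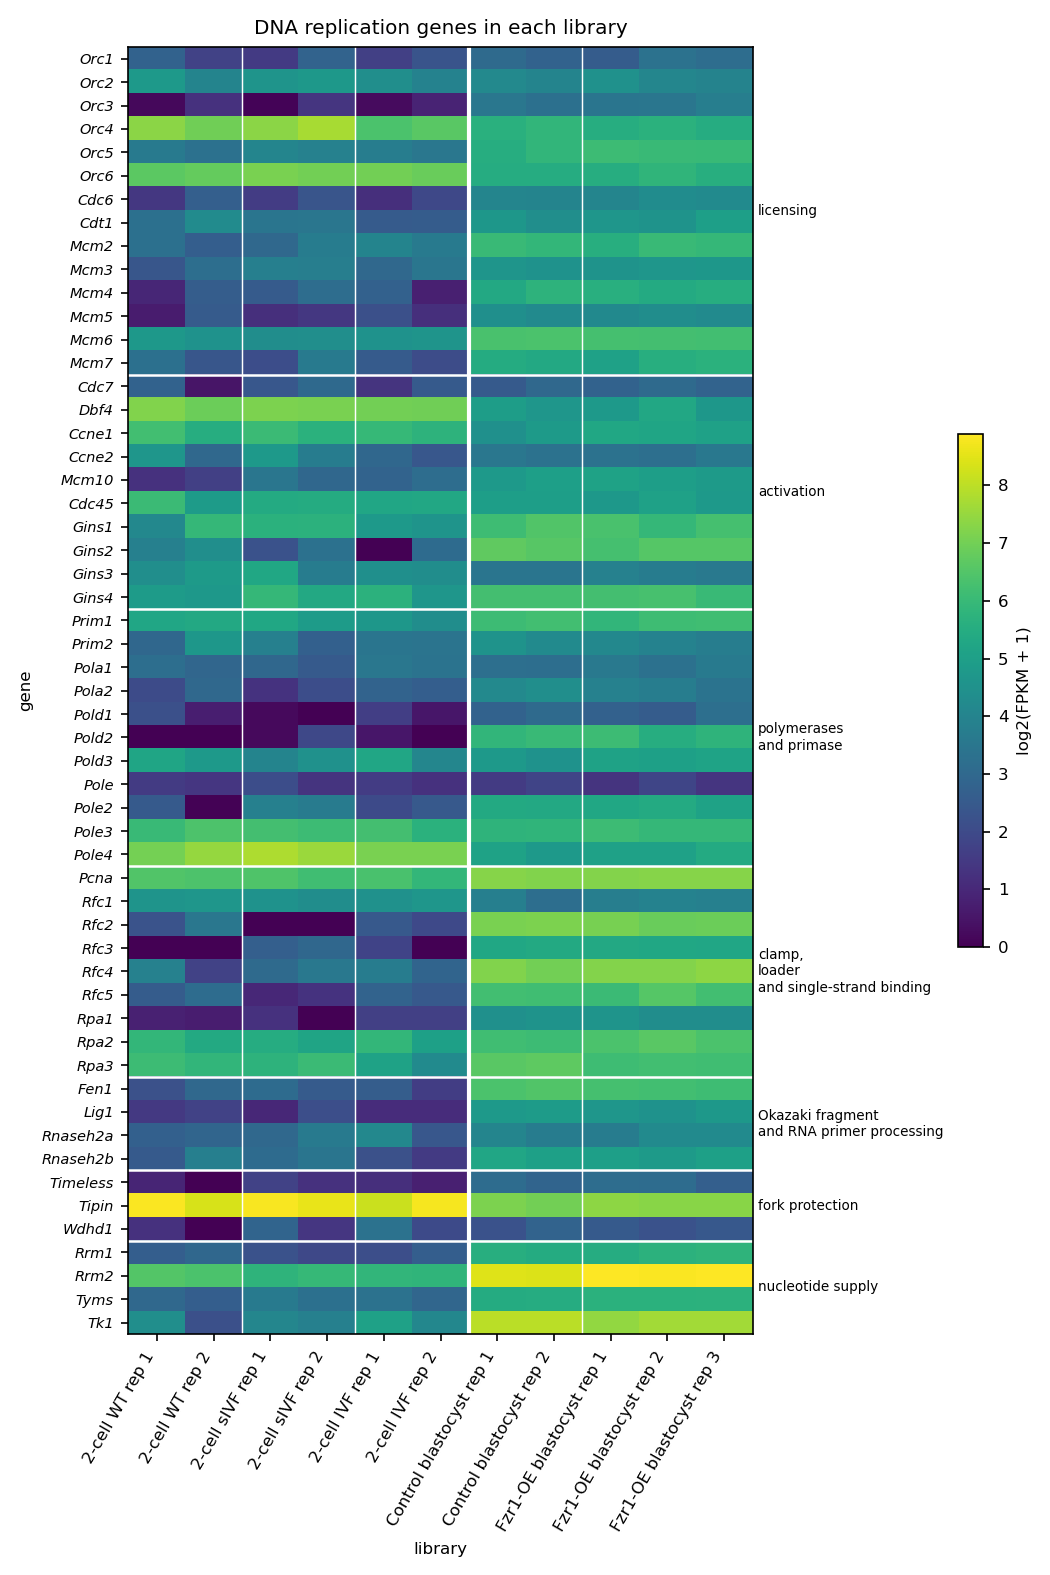
Each row is 1 of the 55 members, ordered by role, and each column is 1 of the 11 libraries; the colour gives log2(FPKM + 1). Most members are brighter in the 5 blastocyst columns, while Orc4, Orc6, Dbf4, Pole4 and Tipin are brighter in the 6 2-cell columns.

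On the deposited scale most replication genes rose from the 2-cell WT libraries to Control blastocysts. The clamp loader, Okazaki fragment and nucleotide supply genes led. Thymidine kinase (Tk1) went from 11.8 ± 11.6 to 249.6 ± 1.82 FPKM (SD, n = 2 each) and the flap endonuclease gene Fen1 from 5.25 ± 2.39 to 84.5 ± 4.24 FPKM. A smaller group was highest in 2-cell embryos and fell, among them Tipin, Pole4, Dbf4, Orc4 and Orc6. With limma across the 11 libraries, 34 of the 55 members rose and 8 fell, so 76.4% were called, against 65.4% of all 9762 loci tested (45.8% higher, 19.6% lower). The members' median log2 fold change was 1.73, or 1.47 without the 2 members listed at 0 in WT, and that of all loci was 0.88.

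The call of a rise depended on the scaling for some members. The summed FPKM of a library was 298129 to 335987 for 2-cell embryos and 502931 to 529532 for blastocysts. Tables scaled by quantiles gave 24 members higher and 12 lower, an equal upper quartile gave 23 and 12, and an equal summed FPKM, added after the data were seen, gave 25 and 12. Of the calls, 66.7%, 65.7% and 67.6% were then higher, against 81.0% for the values as deposited. Of the calls over all loci 48.3%, 52.2% and 55.8% were higher, against 70.1% as deposited. As shares of all loci tested, 29.0%, 30.9% and 33.4% were called higher and 31.1%, 28.3% and 26.5% lower. The median of all loci was then -0.02, 0.16 and 0.27. In total 23 members rose and 8 fell under the deposited scale and all 3 others, and 11 rises were lost under at least 1 scaling. Stage cannot be told apart here from the depth and preparation of the libraries, and in bulk samples fewer cells of a type cannot be told apart from less RNA per cell.

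**Figure D2:**
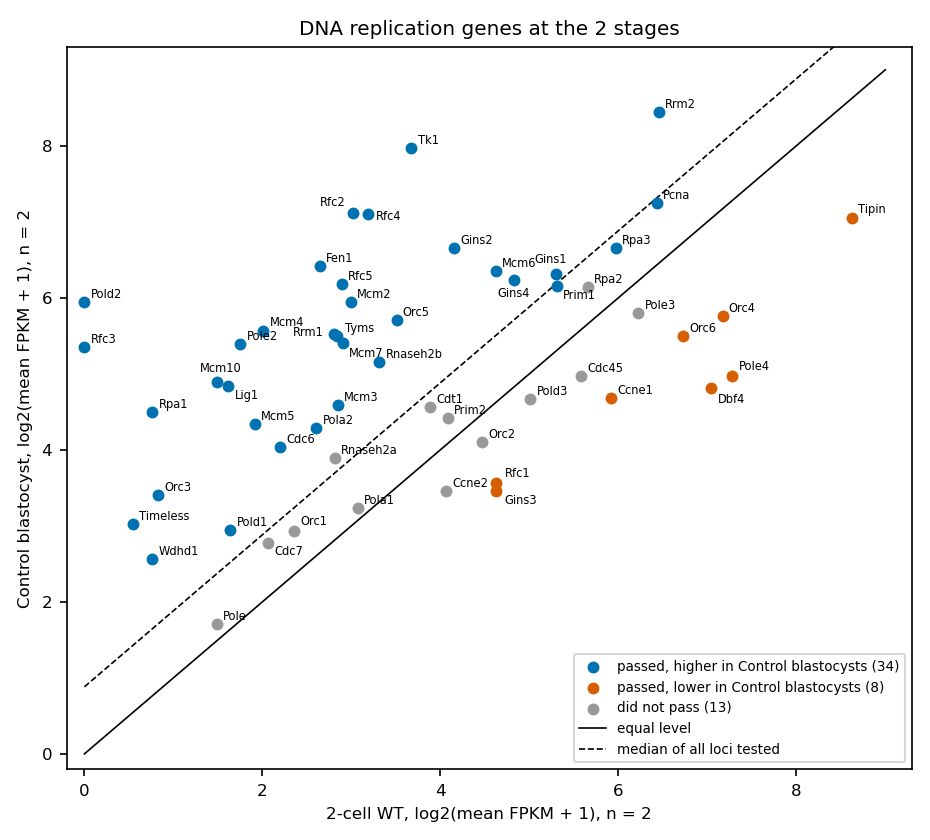
Each point is 1 member, with the log2 of its mean FPKM plus 1 in 2-cell WT (x axis, n = 2) and in Control blastocysts (y axis, n = 2); colours give the limma call on the deposited scale, the solid line is equality and the dashed line is the median shift of all loci. The 34 members that rose lie above the solid line, Prim1, Pcna and Rpa3 at or below the dashed line, and the 8 that fell lie below the solid line.

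Among the 14 licensing genes 9 rose, 2 fell and 3 did not pass, beside 45.8% of all loci higher and 19.6% lower. All 6 subunits of the MCM2-7 helicase rose and did so under every scaling. Mcm4 was at 0.931 and 5.12 FPKM in the WT libraries and at 40.6 and 52.3 in Control blastocysts, for which limma gave a log2 fold change of 3.78 with SE 0.67 and adjusted p = 0.00104. Mcm6 was the highest subunit and Mcm5 the lowest in every group. In 2-cell WT they stood at 25.5 and 21.9 and at 0.614 and 4.93 FPKM, and in Control at 79.9 and 81.9 and at 20.4 and 18.2 FPKM. Each Control library was above each WT library for both genes, as it was for 5505 of the 9762 loci tested.

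The ORC genes moved in opposite directions. Orc4, at chromosome 2 from 48758274 to 48804787 in mm9, was at 162 and 125 FPKM in WT and 48.8 and 57.4 in Control (log2 fold change -1.41, SE 0.20, limma adjusted p = 3.01e-04). Orc6 was at 99.6 and 110.0 FPKM in WT and 44.2 and 44.3 in Control (-1.22, SE 0.15, adjusted p = 1.37e-04). Orc3 and Orc5 rose, Orc3 from 0.141 and 1.42 to 10.6 and 8.66 FPKM and Orc5 from 11.7 and 9.04 to 45.9 and 56.5 FPKM. The largest subunit gene, Orc1, and Orc2 did not pass, with Orc1 at 5.88 and 2.35 FPKM in WT and 7.38 and 5.91 in Control. The loaders differed too, as Cdc6 rose from 1.74 and 5.41 to 15.6 and 15.3 FPKM but did not pass under every scaling, and Cdt1 did not pass at 8.74 and 18.8 against 25.2 and 19.9 FPKM.

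Of the 10 activation genes 4 rose, 3 fell and 3 did not pass, beside 45.8% of all loci higher and 19.6% lower. Dbf4, which binds and activates the CDC7 kinase, was at 146 and 116 FPKM in WT and 29.7 and 24.4 in Control (log2 fold change -2.23, SE 0.23, limma adjusted p = 4.69e-05). The kinase gene Cdc7 itself was at 5.92 and 0.412 against 4.67 and 7.05 FPKM and did not pass. Cyclin E1 (Ccne1), which drives S-phase entry, fell from 73.0 and 45.7 to 21.1 and 28.0 FPKM (-1.21, SE 0.27, adjusted p = 0.00336), and Ccne2 did not pass. Mcm10, a firing factor that binds the assembled helicase, rose from 1.41 and 2.19 to 26.3 and 31.1 FPKM (3.42, SE 0.28, adjusted p = 1.09e-05).

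The GINS complex, which holds 4 different subunits in equal number, split by gene. Gins2 was at 13.7 and 19.9 FPKM in WT and 104 and 95.1 in Control. Gins1 was at 16.7 and 59.8 against 69.6 and 88.1 FPKM, and Gins4 at 28.6 and 26.0 against 73.6 and 74.7 FPKM. These 3 rose on the deposited scale and lost the call under at least 1 other. Gins3 went the other way, from 20.0 and 27.4 to 9.94 and 9.96 FPKM (log2 fold change -1.16, SE 0.43, limma adjusted p = 0.0411), a call that ended when any 1 of the 4 libraries was left out. Cdc45, at 65.4 and 28.4 FPKM in WT and 30.4 and 30.3 in Control, did not pass on the deposited scale and was lower by call under all 3 others.

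Of the 11 polymerase and primase genes 5 rose, 1 fell and 5 did not pass, beside 45.8% of all loci higher and 19.6% lower. Pold2, the second subunit of polymerase delta, was listed at 0 in both WT libraries and stood at 57.4 and 63.5 FPKM in Control, so no fold is given. Pole2 rose from 4.69 and 0.0461 to 41.2 and 40.6 FPKM (log2 fold change 4.10, SE 0.63, limma adjusted p = 4.58e-04). Pole4, a histone-fold subunit of polymerase epsilon, fell from 129.6 and 179 to 33.7 and 26.9 FPKM (-2.30, SE 0.22, adjusted p = 2.38e-05), the largest fall among the members on the deposited scale. The catalytic subunit gene Pole was low throughout, at 1.95 and 1.66 FPKM in WT and 1.95 and 2.56 in Control.

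The other catalytic subunits were also at modest levels. Pola1 was at 8.25 and 6.57 FPKM in WT and 8.48 and 8.28 in Control and did not pass, and Pold1 rose from 3.53 and 0.697 to 5.96 and 7.44 FPKM. The primase gene Prim1 rose from 37.0 and 40.3 to 67.9 and 72.6 FPKM, although its fold change was below 0 after quantile or upper-quartile scaling. Pold1, Prim1 and Pola2, the regulatory subunit of polymerase alpha, each lost the call under at least 1 scaling. Pold3 and Pole3 did not pass on the deposited scale and were lower by call under all 3 others.

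The clamp, its loader and the single-strand binding genes had 7 of 9 members higher and 1 lower. Their median log2 fold change was 3.32. All loci had 45.8% higher and 19.6% lower, with a median of 0.88. The small loader subunits rose together. Rfc4 was at 13.8 and 2.34 FPKM in WT and 147 and 126 in Control (log2 fold change 4.28, SE 0.59, limma adjusted p = 2.39e-04), and Rfc2 at 3.81 and 10.4 against 137 and 139 FPKM (4.23, SE 0.38, adjusted p = 1.77e-05). Rfc5 rose by 3.32 (SE 0.29, adjusted p = 1.42e-05). Rfc3 was listed at 0 in both WT libraries and stood at 38.5 and 41.3 FPKM in Control. The large subunit gene Rfc1 fell from 23.3 and 24.2 to 13.2 and 8.37 FPKM (-1.10, SE 0.25, adjusted p = 0.00372), so that it was the highest loader gene in each 2-cell group and the lowest in each blastocyst group.

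The sliding clamp gene Pcna was already high in WT, at 87.4 and 83.4 FPKM, and stood at 154 and 147 in Control. It rose on the deposited scale, and its fold change was below 0 after quantile or upper-quartile scaling. Replication protein A, which coats single-stranded DNA, is built from 3 subunits. Its large subunit gene Rpa1 was at 0.752 and 0.648 FPKM in WT and 20.8 and 22.5 in Control (log2 fold change 3.74, SE 0.38, limma adjusted p = 4.17e-05). Rpa2, at 58.2 and 40.9 against 71.3 and 67.5 FPKM, did not pass, and Rpa3, at 66.6 and 56.9 against 97.9 and 101 FPKM, rose on the deposited scale but had a fold change below 0 under all 3 others.

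Of the 4 Okazaki fragment and primer genes 3 rose, beside 45.8% of all loci. Fen1, which removes displaced flaps, was at 3.56 and 6.94 FPKM in WT and 81.5 and 87.5 in Control (log2 fold change 3.83, SE 0.38, limma adjusted p = 3.41e-05). The DNA ligase gene Lig1 was at 1.81 and 2.33 against 26.7 and 28.4 FPKM (3.22, SE 0.36, adjusted p = 6.36e-05). The ribonuclease H2 genes differed, with Rnaseh2b higher at 4.72 and 13.2 against 37.1 and 32.3 FPKM, a call that did not hold under every scaling, and the catalytic Rnaseh2a without a call at 5.55 and 6.51 against 15.4 and 12.2 FPKM.

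Fork protection genes moved apart. Tipin, at chromosome 9 from 64129414 to 64152599 in mm9, was at 460.3 and 326 FPKM in WT and 138 and 126 in Control (log2 fold change -1.55, SE 0.21, limma adjusted p = 2.24e-04). Its partner Timeless rose from 0.898 and 0.0162 to 7.88 and 6.36 FPKM. Wdhd1, which links the helicase to polymerase alpha, rose from 1.39 and 0 to 3.77 and 6.09 FPKM on the deposited scale and not under every other.

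All 4 nucleotide supply genes rose, beside 45.8% of all loci on the deposited scale, and did so under every scaling. Tk1 was at 20.0 and 3.54 FPKM in the WT libraries and 251 and 248 in Control (log2 fold change 4.68, SE 0.60, limma adjusted p = 1.44e-04). Rrm2 was at 90.9 and 82.3 FPKM in WT and 354 and 338 in Control. The large reductase subunit gene Rrm1 was at 5.25 and 6.75 against 46.1 and 43.7 FPKM, and Tyms, the thymidylate synthase gene, at 6.97 and 5.31 against 43.8 and 44.4 FPKM. Each Control library was above each WT library for all 4 genes, as it was for 5505 of the 9762 loci tested. Relative to the median shift of all loci, the named rises with a fold ran from 2.34 (Lig1) to 3.80 (Tk1) on the log2 scale, and the falls from -3.19 (Pole4) to -1.98 (Rfc1).

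For 5 of the named rises 1 WT library moved the fold by over 1.5 times while the call held. Without WT replicate 1 and without WT replicate 2 the log2 fold change was 5.79 and 3.58 for Tk1, 5.32 and 2.88 for Pole2, and 5.36 and 3.21 for Rfc4. For Mcm4 it was 2.94 and 4.61, and for Rfc2 3.61 and 4.86.

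Subunits of most complexes lay further apart in 2-cell embryos than in blastocysts. The gap between the highest and the lowest subunit, on the log2 scale of mean FPKM plus 1, was wider in 2-cell WT than in Control for 8 of 10 complexes, with a median of 4.999 against 2.961. For ORC it was 6.34 (Orc4 at 143 and Orc3 at 0.780 FPKM) against 2.82. For Timeless-Tipin it was 8.08 against 4.04, for RPA 5.21 against 2.15, and for Cdc7-Dbf4 4.99 against 2.03. The exceptions were GINS, at 1.14 against 3.20, and polymerase alpha-primase, at 2.70 against 2.93. In sIVF 9 complexes, and in IVF 7, were wider than in both blastocyst groups. These are descriptions of group means with no test, and the polymerase delta and clamp loader gaps rest on a subunit listed at 0 in 2-cell WT. The ORC, RPA and Timeless-Tipin gaps rest there on subunits under 1 FPKM (Orc3 at 0.780, Rpa1 at 0.700 and Timeless at 0.457). The 2-cell libraries were also shallower, and no gap was taken for other sets of genes. Whether the wider gaps are particular to these complexes was thus not tested.

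**Figure D3:**
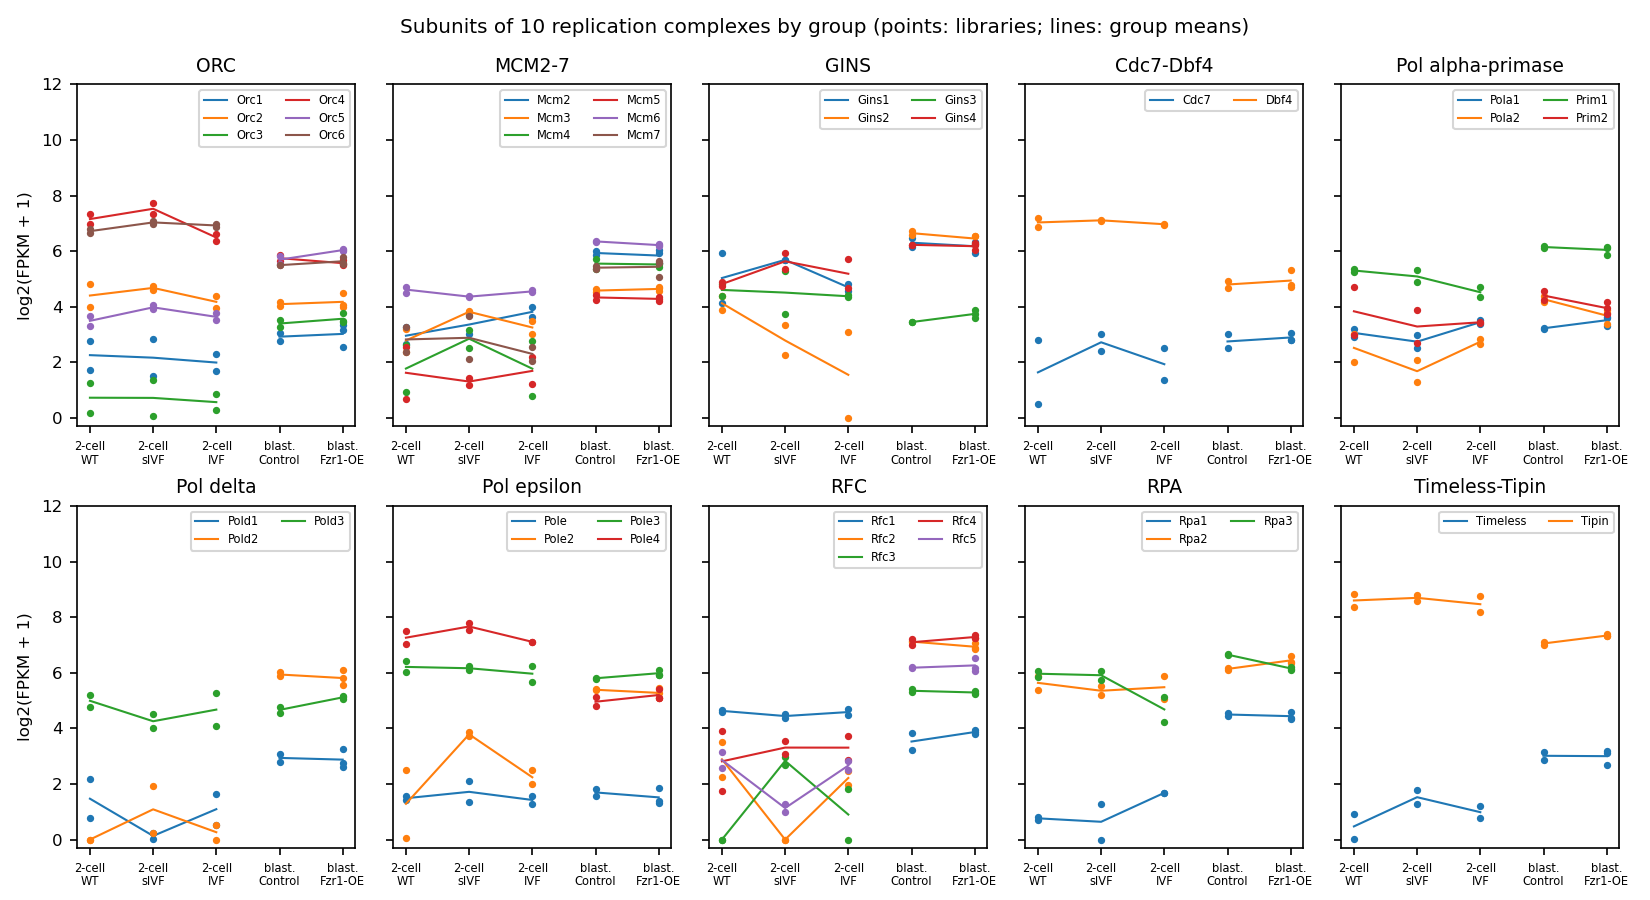
Each panel is 1 of 10 complexes, with log2(FPKM + 1) on the y axis and the 5 groups on the x axis; points are libraries, lines join group means of the log2 values within a stage and colours mark subunits. Subunits spread over a wider range in the 2-cell groups for ORC (Orc4 and Orc6 above, Orc3 below), polymerase epsilon, RPA and Timeless-Tipin, and Rfc1 moves from the top of its complex to the bottom.

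Other genes of the pathway were taken from a list of 81 symbols that holds no symbol of a member, although And1 in it is another name of Wdhd1. These genes gave 36 higher and 12 lower of 72 tested (66.7%), beside the 65.4% of all loci. Their median log2 fold change was 0.89. Rnaseh1, a ribonuclease H, was listed at 0 and at 0.231 FPKM in WT and at 15.0 and 18.8 in Control, and Mcm8, a helicase of recombination, at 0.0743 and 0.0214 against 16.4 and 13.5 FPKM. The p53-inducible reductase subunit gene Rrm2b went the opposite way to Rrm2, from 24.7 and 24.9 FPKM in WT to 1.76 and 1.55 in Control (log2 fold change -3.28, SE 0.38, limma adjusted p = 8.71e-05). Rb1, which restrains E2F factors, fell by 2.81 (SE 0.36, adjusted p = 1.40e-04), and E2f5 fell by 2.55 (SE 0.32, adjusted p = 1.38e-04). Dguok, a mitochondrial deoxyguanosine kinase gene, had 1 WT library listed at 0 and the other at 7.81 FPKM, against 56.6 and 45.0 FPKM in Control, and its call ended without WT replicate 2 (limma adjusted p = 0.0662).

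In 2-cell embryos no replication gene passed the test in any comparison of WT, sIVF and IVF. The values nearest to a call were lower Rpa3 and Orc4 in IVF. Of the 55 members 53 had a mean of at least 1 FPKM and were tested, Orc3 and Pold2 falling below it. For IVF against WT limma called 0 of 53, beside 0.0121% of 8246 loci, and 8 members stood at an unadjusted p under 0.05, beside 12.4% of all loci. For sIVF against WT it called 0 of 53 and 0% of all loci, with 6 members at an unadjusted p under 0.05 beside 7.09%. For sIVF against IVF the counts were 0, 0% and 8 beside 11.8%. These comparisons share their libraries in pairs.

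Rpa3, the small subunit of replication protein A, was at 66.6 and 56.9 FPKM in WT, 53.0 and 66.1 in sIVF and 33.8 and 18.0 in IVF. Both IVF libraries lay below the other 4. The log2 fold change was -1.28 for IVF against WT (SE 0.35, limma adjusted p = 0.191) and 1.23 for sIVF against IVF (SE 0.35, adjusted p = 0.239). Orc4 was also lowest in both IVF libraries, at 162 and 125 FPKM in WT, 160.2 and 211 in sIVF and 82.2 and 96.8 in IVF. Its log2 fold change was -0.66 for IVF against WT (SE 0.24, adjusted p = 0.328) and 1.03 for sIVF against IVF (SE 0.24, adjusted p = 0.162). Markers of the 2-cell stage, 7 of 10 of them measured, were also at a lower sum in IVF (55.3 to 73.6 FPKM) than in WT (100.2 to 132) or sIVF (131 to 143). Between IVF and WT, however, Tdpoz4, Zfp352 and Pramef6 overlapped. Between IVF and sIVF, Zscan4c and Pramef6 overlapped, and Tdpoz4 was higher in both IVF libraries, at 2.83 and 13.4 against 0 and 0.916 FPKM. The 6 oocyte-derived markers summed to 4022 to 4554 FPKM in IVF and 5516 to 5700 in WT, nearly all of it Dppa3, at 3891 and 4379 against 5400 and 5611 FPKM. Of the rest, Zp3 overlapped, and Gdf9, Bmp15, Oosp1 and Mos were higher in both IVF libraries than in both WT libraries, as for Gdf9 at 15.3 and 15.6 against 7.02 and 1.16 FPKM. The part of these markers in the members' values was not tested.

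Mcm10 was higher in each sIVF and IVF library than in WT, at 1.41 and 2.19 FPKM in WT, 10.3 and 6.89 in sIVF and 6.17 and 8.14 in IVF. The log2 fold change was 1.76 for sIVF (SE 0.54, limma adjusted p = 0.519) and 1.54 for IVF (SE 0.54, adjusted p = 0.316). Rrm2 was lower in each of these 4 libraries, at 53.5 and 61.0 FPKM in sIVF and 56.3 and 54.9 in IVF against 90.9 and 82.3 in WT, and did not pass. Among the clamp loader genes, Rfc2 was listed at 0 in both sIVF libraries and stood at 3.81 and 10.4 FPKM in WT and 4.58 and 2.87 in IVF. Rfc3 was listed at 0 in both WT libraries and in IVF replicate 2, and stood at 5.39 and 6.92 FPKM in sIVF. The adjusted p was 0.466 for Rfc2 and 0.508 for Rfc3 in sIVF against WT by limma, and 0.271 for Rfc2 in sIVF against IVF.

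**Figure D4:**
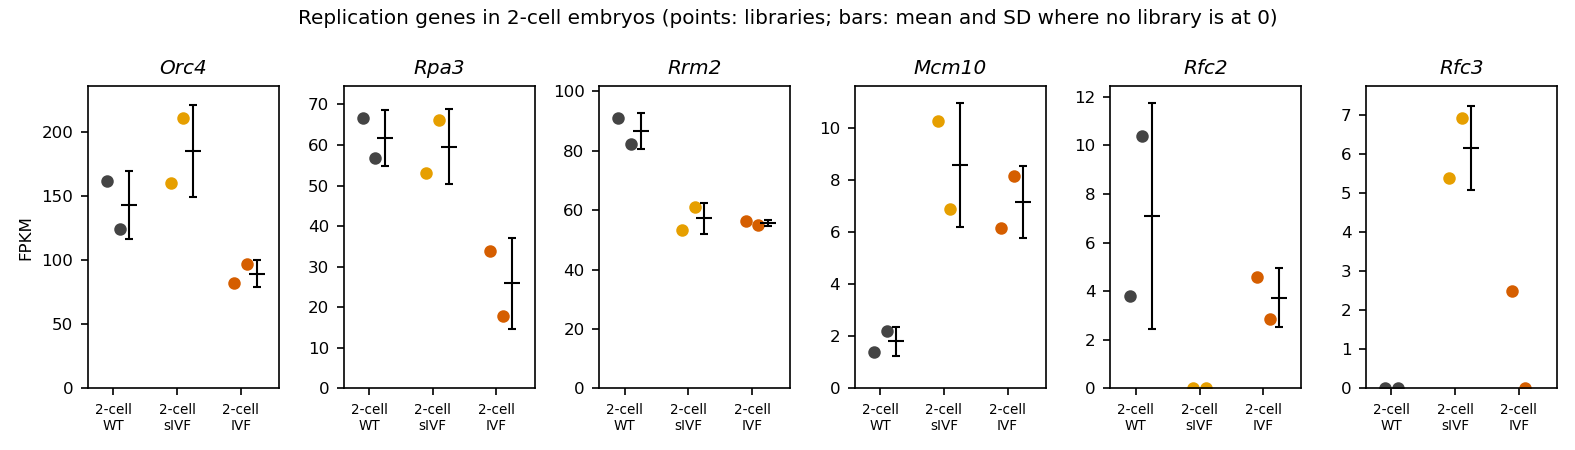
FPKM of 6 members in the 2-cell groups (x axis, 2 libraries each), with points for libraries and bars for the mean and SD where no library is at 0; each y axis starts at 0. Orc4 and Rpa3 are lowest in both IVF libraries, Rrm2 is highest in both WT libraries, Mcm10 is lowest in WT, and Rfc2 and Rfc3 have groups listed at 0; no difference passed.

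Across the 53 tested members the 2-cell groups differed little in the median. The median log2 fold change was -0.15 for IVF against WT, beside 0.09 for all loci. Here 19 members lay above 0 and 34 below, beside 4524 and 3722 of all loci. The members' median was -0.02 without WT replicate 1 and -0.08 without WT replicate 2. It was -0.15 without IVF replicate 1 and -0.0002 without IVF replicate 2. For sIVF against WT the median was 0.06, as for all loci, with 27 above and 26 below, beside 4474 and 3772 of all loci. For sIVF against IVF it was 0.20 beside -0.02, with 37 above and 16 below, beside 4042 and 4204 of all loci. The members' summed share of FPKM was 0.619% and 0.577% in WT, 0.598% and 0.585% in sIVF, and 0.493% and 0.498% in IVF, so both IVF libraries were lowest. Groups did not overlap for 6 members higher and 10 lower in IVF than in WT, beside 22.8% and 19.3% of all loci. Of the 81 other pathway symbols 64 were tested and 0 passed in each of the 3 comparisons, with 7, 4 and 6 at an unadjusted p under 0.05.

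In blastocysts labelled Fzr1-OE limma called Rrm2 higher and Tk1 and Rpa3 lower, a share of members near that of all loci. None of these 3 calls held under every alternative. Rrm2 was at 467 ± 8.02 FPKM (SD, n = 3) against 346 ± 11.1 (SD, n = 2), Tk1 at 191 ± 14.6 against 249.6 ± 1.82 and Rpa3 at 70.4 ± 2.19 against 99.6 ± 2.42 FPKM. In all, limma called 3 of 55 members, 1 higher and 2 lower (5.45%), beside 4.21% of 9439 loci (2.29% higher, 1.92% lower), so the share is near the background. At an unadjusted p under 0.05 stood 11 members, beside 19.7% of all loci. The members' median log2 fold change was 0.02 and that of all loci 0.01.

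Rrm2, at chromosome 12 from 25393119 to 25399011 in mm9, was at 470.0, 458 and 473 FPKM in the libraries labelled Fzr1-OE and 354 and 338 in Control. The groups did not overlap, and the log2 fold change was 0.43 (SE 0.06, limma adjusted p = 0.00485). Tk1, at chromosome 11 from 117676833 to 117687328, was at 174, 199 and 199 FPKM against 251 and 248, again without overlap (log2 fold change -0.39, SE 0.08, adjusted p = 0.0307). The Tk1 locus overlaps that of Afmid, which was at 4.42, 2.997 and 2.52 FPKM against 2.28 and 2.53, and use of strand in counting is not given in the sources used here. The other 2 supply genes did not pass. Rrm1 was at 44.5, 52.0 and 54.6 against 46.1 and 43.7 FPKM and overlapped, and Tyms was at 49.6, 50.3 and 51.1 against 43.8 and 44.4 FPKM.

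Rpa3, at chromosome 6 from 8205936 to 8209141, was at 68.4, 72.8 and 70.0 FPKM in the libraries labelled Fzr1-OE and 97.9 and 101 in Control (log2 fold change -0.50, SE 0.09, limma adjusted p = 0.0146). The other subunits of replication protein A did not pass. Rpa2 was higher in each library labelled Fzr1-OE, at 82.6, 96.1 and 80.8 against 71.3 and 67.5 FPKM, and Rpa1 overlapped, at 23.3, 19.5 and 19.5 against 20.8 and 22.5 FPKM. Without Control replicate 2 none of the 3 calls held, and the adjusted p was 0.0645 for Rrm2, 0.135 for Rpa3 and 0.179 for Tk1. Without Control replicate 1 it was 0.0722 for Rpa3 and 0.150 for Tk1, without Fzr1-OE replicate 3 it was 0.0512 and 0.0667, and without Fzr1-OE replicate 2 it was 0.0666 for Tk1. All 3 calls also ended when loci of low value were kept in and when the fit had no intensity trend.

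**Figure D5:**
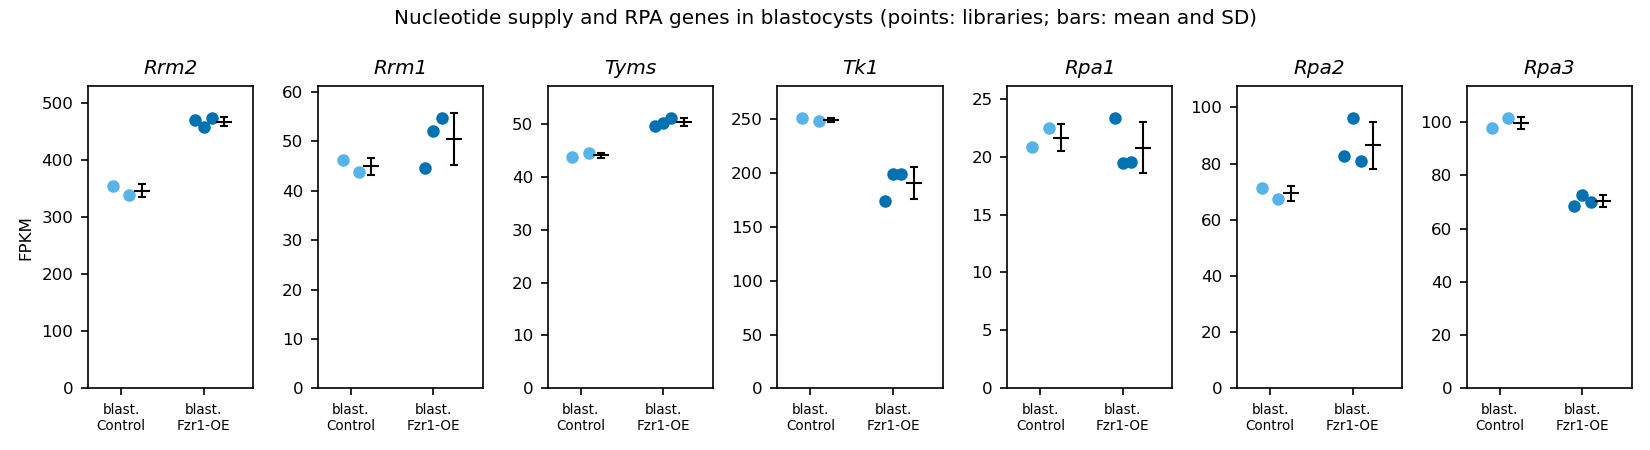
FPKM of the 4 nucleotide supply genes and the 3 RPA genes in Control (2 libraries) and libraries labelled Fzr1-OE (3 libraries), with points for libraries and bars for the mean and SD; each y axis starts at 0. Rrm2 lies higher and Tk1 and Rpa3 lower in the libraries labelled Fzr1-OE without overlap, Tyms and Rpa2 lie higher without passing, and Rrm1 and Rpa1 overlap.

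Several other members were separated between the blastocyst groups without passing. Cyclin E1 (Ccne1) was at 38.0, 36.1 and 32.6 FPKM in the libraries labelled Fzr1-OE and 21.1 and 28.0 in Control. Pold3 was at 33.9, 32.6 and 34.6 against 26.5 and 22.4 FPKM, Orc5 at 67.2, 64.9 and 62.9 against 45.9 and 56.5, and Tipin at 167, 158 and 158 against 138 and 126. Lower values in the libraries labelled Fzr1-OE were seen for the polymerase alpha-primase genes Pola2, at 13.9, 12.7 and 9.44 against 17.0 and 19.9 FPKM, and Prim2, at 16.9, 14.4 and 12.5 against 22.7 and 18.1. Groups did not overlap for 13 members higher and 9 lower, beside 19% and 18.4% of all loci. Among the helicase subunits Mcm6 was lower without overlap, at 75.2, 74.2 and 71.7 against 79.9 and 81.9 FPKM. The other subunits overlapped, as for Mcm2 at 46.7, 64.7 and 59.8 against 63.4 and 57.5 FPKM and Mcm5 at 17.7, 19.6 and 18.3 against 20.4 and 18.2.

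Of the 81 other pathway symbols 70 were tested in blastocysts, and 3 rose and 1 fell (5.71%), beside the 4.21% of all loci. Ccna2, the S-phase cyclin A2 gene, was at 49.96, 53.5 and 53.3 FPKM in the libraries labelled Fzr1-OE and 39.2 and 34.0 in Control (log2 fold change 0.51, SE 0.11, limma adjusted p = 0.0347). Hprt, of purine salvage, rose by 0.49 (SE 0.05, adjusted p = 9.20e-04), and Dtymk, the thymidylate kinase gene that acts after TK1 and TYMS, rose by 0.25 (SE 0.05, adjusted p = 0.0341). Mcmbp, which encodes a protein that binds MCM subunits, fell by 0.45 (SE 0.11, adjusted p = 0.0493). All 4 calls ended with loci of low value kept in and with no intensity trend. Of the 14 alternatives 3 ended the call of Hprt, 7 that of Ccna2, 7 that of Dtymk and 12 that of Mcmbp. Without Control replicate 2 the limma adjusted p was 0.0140 for Hprt, 0.241 for Ccna2, 0.200 for Dtymk and 0.279 for Mcmbp. Beside these results stood the lower trophectoderm sum given above for the libraries labelled Fzr1-OE. The 5 markers of inner cell mass and epiblast, all detected, summed to 73.2 to 86.1 FPKM against 61.4 to 69.7 in Control, and the 4 of primitive endoderm to 31.3 to 34.3 against 21.6 to 24.2. Within the higher sums Pou5f1, Nanog and Gata6 were higher without overlap, while Sox2, Esrrb, Klf2, Gata4, Sox17 and Pdgfra overlapped. The trophectoderm sum was mostly Krt18 and Krt8. Both were lower in the libraries labelled Fzr1-OE, as were Gata3, Elf5 and Eomes, while Cdx2 and Tfap2c overlapped. The part of these lineages in the calls was not tested.

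The loci of 11 members overlap another locus in the tables. Besides Tk1, these include Pold2 with Aebp1, Rfc4 with Eif4a2, Orc4 with Acvr2a, Orc3 with Akirin2 and Mcm7 with microRNA genes. Afmid was at 17.8 and 8.67 FPKM in 2-cell WT, beside Tk1 at 20.0 and 3.54, and at 2.28 and 2.53 in Control. Akirin2 was at 33.3 and 23.4 FPKM in 2-cell WT, beside Orc3 at 0.141 and 1.42, and at 23.2 and 19.3 in Control. Aebp1 was at most 0.0440 FPKM in any library. Eif4a2 was at 24.9 and 20.8 FPKM in 2-cell WT and 99.5 and 103.7 in Control, so that it was also higher in blastocysts beside Rfc4. Acvr2a stood at no more than 4.10 FPKM beside the far higher Orc4. Reads from bases that overlapping genes share cannot be told apart without strand. Whether exons are shared was not examined, as the overlap is of whole loci.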

How the data were processed

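RNA was measured in 11 embryo libraries. Per the labels' protocols, cDNA made in lysates was amplified and then fragmented before paired-end sequencing. For each library the authors deposited 1 table of FPKM by gene, in mm9 coordinates and with confidence bounds, per the file headers. Cuffdiff, Cufflinks 2.2.1 and HISAT2 2.1.0 are named, without roles, in the submitters' processing notes. Amplification before fragmentation, and scaling to each library's mapped fragments, mean that FPKM gives relative levels only.

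Groups were taken from sample titles. The test was limma 3.58.1 in R 4.3.3 on log2(FPKM + 1) (lmFit, eBayes with an intensity trend, two-sided) over all loci whose mean reached 1 FPKM. The 6 2-cell libraries, the 5 blastocyst libraries and, for the stages, all 11 libraries had a fit each. Fold changes are on that scale, which understates low genes, and a locus passed if its p, adjusted by Benjamini-Hochberg over all loci tested, was under 0.05. The labels do not say that replicates were separate cultures or animals, so p-values measure only the spread between these libraries, which may be technical. Depth was taken from the bounds, read as 2 standard deviations of a count, and covers counting error only.

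Members and lists were chosen with earlier results of these data known. Fold changes are given, per comparison, for Fzr1, for up to 12 passing members per direction whose groups did not overlap, or, where fewer than 3 passed, for the 3 of smallest p, and for up to 3 passing other pathway genes per direction. Alternatives were leaving out each replicate, fits of only the groups compared, a replicate block, robust estimation, a flat prior in place of the intensity trend, scaling by quantiles or by the upper quartile, a filter at 5 FPKM or none, and 0.1 as pseudocount. Scaling to an equal summed FPKM was added after the data were seen. The steps were tested on simulated data. Exons are not stated, since no annotation of mm9 was used. The libraries of H3K9me3 and their inputs were left out. Python 3.11.15, pandas 2.3.3, numpy 2.4.6 and matplotlib 3.10.9 were also used.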

Additional observations from a re-analysis of the deposited data

How the results depend on the processing

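Counts of members called stayed within 1.5 times under every alternative for the stage comparison (23 to 34 higher, 7 to 12 lower) and at 0 for the 3 comparisons of 2-cell groups. The members behind the stage counts changed, as 11 rises were lost under at least 1 of 3 scalings. Cdc45, Orc2, Pold3 and Pole3 were called lower under all 3 scalings and not as deposited. Prim1, Pcna and Rpa3, called higher as deposited, had a fold change below 0 under at least 1 scaling. In the 2-cell groups, calls over all loci still moved, from 1 to 21 for IVF against WT and from 0 to 32 for sIVF against IVF with a filter of 5 FPKM. For libraries labelled Fzr1-OE against Control, the 1 member higher and 2 lower became 0 and 0 with no filter on low values (adjusted p 0.0640 for Rrm2, 0.0647 for Rpa3, 0.158 for Tk1), 0 and 0 with no intensity trend (0.185, 0.157, 0.238), and 0 and 0 with the replicate block (0.121, 0.139, 0.165). Leaving out 1 replicate gave 0 to 1 higher and 0 to 2 lower, and the fit then assumes that a single Control library varies as the libraries labelled Fzr1-OE do. Over all 14 alternatives the log2 fold changes ran from 0.40 to 0.46 for Rrm2, from -0.52 to -0.47 for Rpa3 and from -0.42 to -0.32 for Tk1. Calls over all loci in this comparison went from 397 to 0 with no filter, 41 with no trend and 47 with the block. The cause was not tested. Replicate numbers did not pair samples: the correlation of deviations of same-numbered libraries ran from -0.0655 to 0.0742, and the block left 32 members higher and 7 lower for the stages. The fit of only the groups compared is the reported fit for the blastocysts, so it adds no value there. The call of Gins3 was lost in 6 of 14 alternatives (no filter, the block and each omitted library). Depth limits the low 2-cell values, where 2 standard deviations of counting error reached 373.5% of a value.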

Other observations

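Among 2-cell libraries the members' values varied from gene to gene in how well replicates matched. Over the 6 libraries, the median within-group SD on the log2 scale was 0.478 for 53 members and 0.536 for all 8246 loci tested, from 0.085 for Orc6 to 1.361 for Gins2. Over the 5 blastocyst libraries it was 0.137 for 55 members and 0.192 for all 9439 loci, from 0.0193 for Tyms to 0.348 for Orc1. The 3 highest members of a library held 34.5% to 44.9% of the members' summed FPKM at the 2-cell stage and 25.04% to 27.5% at the blastocyst stage. In the authors' deposited table of gene ontology terms for RNA of subcutaneous fat, with 449 symbols in the 1605 terms used here, 0 of the 55 members appeared, and in the authors' deposited table for its DNA methylation, with 119 symbols in 632 terms, 0 appeared.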
